A study of Mus musculus with 4 samples.

Results

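The 10 genes described here modify collagen inside the cell or crosslink it outside, and were followed through 4 single-cell RNA libraries of mouse embryoid bodies, the spheres that embryonic stem cells form as they differentiate. The genes were chosen by name: P4ha1, P4ha2, P4hb, Plod1, Plod2, Lox, Loxl1, Loxl2, Serpinh1 and Leprel1. Of these 10, 9 stood in the gene table under that symbol, and Leprel1 was matched through its current symbol, P3h2, which RefSeq lists with Leprel1 as a synonym. They are 10 of 32285 genes in the files, and all 10 were among the 10599 whose level averaged 5 CPM or more over the libraries (CPM scales a gene's counts by the total of its library). Each of the 10 stood at 13.4 CPM or more in every library, so none passed through 1 high library alone.

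The embryoid bodies were grown from R1, a line of mouse embryonic stem cells. They were cultured for 8 days in normoxia, for 7.33 days in normoxia and then 16 h in hypoxia, for 10 days in normoxia, or for 8 days in normoxia and then 48 h in hypoxia. The sources used here do not give the oxygen level. Each condition is 1 library from 1 cell line, so no difference between conditions has a replicate check, no test was run, and the intervals printed cover counting error only.

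Fibrillar collagen is modified in the endoplasmic reticulum before it is secreted. Prolyl 4-hydroxylase, built from an alpha subunit (P4ha1 or P4ha2) and the beta subunit P4hb, hydroxylates prolines and thereby stabilises the triple helix. Lysyl hydroxylases (Plod1, Plod2) modify lysines that later carry crosslinks, Serpinh1 encodes the collagen chaperone HSP47, and P3h2 hydroxylates prolines at another position of the ring, mainly in basement membrane collagen. Outside the cell, lysyl oxidases (Lox, Loxl1, Loxl2) oxidise lysines so that collagen and elastin molecules become covalently linked. The hydroxylases use molecular oxygen, iron and oxoglutarate, and P4ha1, P4ha2, Plod2, Lox and Loxl2 are known in other cells as targets of the hypoxia-inducible factors (HIFs), which bind a short core motif in DNA.

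In mm10 coordinates of the GENCODE M21 annotation, P4ha1 lies at chr10:59323296-59373304, P4ha2 at chr11:54100095-54131665 and P4hb at chr11:120560298-120573253. Plod1 lies at chr4:147909753-147936767 and Plod2 at chr9:92542223-92608428. Loxl1 lies at chr9:58287738-58313186 and Loxl2 at chr14:69609068-69695834. Serpinh1 lies at chr7:99345376-99353239 and P3h2 at chr16:25959288-26105784. Lox shares 1207 bases with an antisense gene, AC161119.1, which held 1016 UMIs (unique molecular identifiers, 1 per captured RNA molecule) against 17883 for Lox. The other annotated genes that overlap a member and are in the files held 12 UMIs (Gm27177, with Loxl2) and 27 and 70 UMIs (Gm4524 and AU015336, with P3h2).

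Promoter sequence was at hand for 5 of the 10 members, P4ha1, P4ha2, P4hb, Plod1 and Serpinh1 (RefSeq, GRCm38.p6). All that were at hand are shown. Of the members at least 1.5-fold higher after 16 h of hypoxia, they include P4ha1, P4ha2 and P4hb and lack Plod2, Lox and Loxl2. Plod1 and Serpinh1 did not reach 1.5-fold. Each line gives the 250 bases before a RefSeq start of the gene, read 5′ to 3′ on the gene's strand. Capitals mark the HIF core motif ACGTG and its variant GCGTG on either strand, where a match on the opposite strand reads CACGT or CACGC. The windows are chr10:59323046-59323295 (plus strand) for P4ha1, chr11:54100674-54100923 (plus strand) for P4ha2, chr11:120573254-120573503 (minus strand) for P4hb, chr4:147936777-147937026 (minus strand) for Plod1 and chr7:99353240-99353489 (minus strand) for Serpinh1. The P4ha2 window lies inside the gene as GENCODE M21 annotates it, from 54100095 on, so its start is not the first of the gene.
P4ha1: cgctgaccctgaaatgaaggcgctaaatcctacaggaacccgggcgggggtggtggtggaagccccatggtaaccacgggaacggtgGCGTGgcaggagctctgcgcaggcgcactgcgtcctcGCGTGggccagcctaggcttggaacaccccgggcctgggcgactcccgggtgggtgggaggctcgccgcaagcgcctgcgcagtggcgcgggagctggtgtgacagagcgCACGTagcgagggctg
P4ha2: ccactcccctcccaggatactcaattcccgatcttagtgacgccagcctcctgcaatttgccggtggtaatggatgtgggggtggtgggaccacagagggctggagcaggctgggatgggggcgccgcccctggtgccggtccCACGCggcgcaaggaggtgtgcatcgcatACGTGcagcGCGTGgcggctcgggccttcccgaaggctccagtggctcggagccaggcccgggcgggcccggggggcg
P4hb: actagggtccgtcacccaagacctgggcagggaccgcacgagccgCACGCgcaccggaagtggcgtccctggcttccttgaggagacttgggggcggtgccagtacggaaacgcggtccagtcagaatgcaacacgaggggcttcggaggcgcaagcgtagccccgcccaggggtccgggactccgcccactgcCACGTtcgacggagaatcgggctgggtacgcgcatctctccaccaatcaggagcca
Plod1: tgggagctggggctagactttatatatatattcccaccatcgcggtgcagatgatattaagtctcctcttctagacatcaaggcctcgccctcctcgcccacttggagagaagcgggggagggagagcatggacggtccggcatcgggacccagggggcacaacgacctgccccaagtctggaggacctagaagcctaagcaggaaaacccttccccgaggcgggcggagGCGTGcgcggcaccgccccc
Serpinh1: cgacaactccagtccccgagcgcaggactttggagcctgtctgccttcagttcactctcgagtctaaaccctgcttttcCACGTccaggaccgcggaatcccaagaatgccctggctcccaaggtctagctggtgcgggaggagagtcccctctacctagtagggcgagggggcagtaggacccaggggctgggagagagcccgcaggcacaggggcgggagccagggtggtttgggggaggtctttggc
P4ha1 and P4ha2 each held 3 marked motifs in these 250 bases, P4hb held 2, and Plod1 and Serpinh1 held 1 each. Over the full window of 300 bases, from 250 before to 50 after the start, P4ha1 had 1 ACGTG and 2 GCGTG, P4ha2 had 2 and 2, P4hb had 2 and 1, Plod1 had 0 and 2, and Serpinh1 had 1 and 0. No match overlapped another. Of 32851 promoter windows of that length, 19.6% held ACGTG, 32.4% held GCGTG and 43.8% held either. These shares count windows with any match and not the number of matches in a window. Whether the number of matches goes with the differences in level was not tested. A match shows these letters only and says nothing of binding.

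The kept cells numbered 3163, 3344, 2670 and 4615 (8 days normoxia, 16 h hypoxia, 10 days normoxia, 48 h hypoxia) and held between 62221875 and 84709052 UMIs per library. Barcodes shared by libraries numbered 1 to 5 per pair. The library of 48 h hypoxia stood apart in several ways: its cells had a median of 12800 UMIs against 18838.5 to 23034 in the other 3, and ribosomal protein genes took 29.4% of its UMIs against 18.4% to 20.7%. The 8 hypoxia check genes (Vegfa, Egln3, Ndrg1, Pdk1, Bnip3, Slc2a1, Pgk1, Ldha) were all at least 1.5-fold higher in both hypoxia libraries than in normoxia of the same age, with log2 ratios of 1.21 to 2.94 at day 8 and 0.82 to 2.39 at day 10. The 10599 genes had a median log2 ratio of -0.11 at day 8 and -0.46 at day 10, and scaling with edgeR's TMM factors raised these medians by 0.22 and 0.48. Values at day 10 are therefore also given relative to the median of all genes. Markers of smooth muscle (9 of 9 in the files, none at 0) summed to 4235 and 5957 CPM without and with hypoxia at day 8, and to 1863 and 7655 CPM at day 10. General mesenchymal markers (16 of 16, with 1 at 0 in normoxia at day 10) summed to 2308 and 2055 CPM at day 8 and to 2279 and 879 CPM at day 10. The part of this shift in the member values at day 10 was not tested.

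After 16 h of hypoxia at day 8, both alpha subunits of prolyl 4-hydroxylase, its beta subunit, the lysyl hydroxylase Plod2 and the oxidases Lox and Loxl2 were higher than in normoxia. That is 6 of 10 members at least 1.5-fold higher, where 4.59% of all 10599 genes were. None of the 10 was at least 1.5-fold lower, where 10.0% of all genes were. The median log2 ratio of the members was 0.89, against -0.11 over all genes. After 48 h at day 10, 3 of 10 (P4ha1, P4ha2, Plod2) were at least 1.5-fold higher, where 10.4% of all genes were. Another 3 of 10 (Loxl1, Loxl2, Serpinh1) were at least 1.5-fold lower, a smaller share than the 44.1% of all genes. Of these, Loxl2 and Serpinh1 lay near the middle of all genes (percentiles 41.5 and 43.0 of the log2 ratio) and Loxl1 lay lower (17.4). The members' median log2 ratio was then -0.12, against -0.46 over all genes. Under TMM scaling the shares of all genes at least 1.5-fold higher and lower were 9.38% and 4.09% at day 8 and 25.5% and 25.3% at day 10, and 1 of the 3 lower members, Loxl1, remained past that fold at day 10. The 2 hypoxia comparisons share no library, but each shares its normoxia library with the comparison of the ages.

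**Figure D1:**
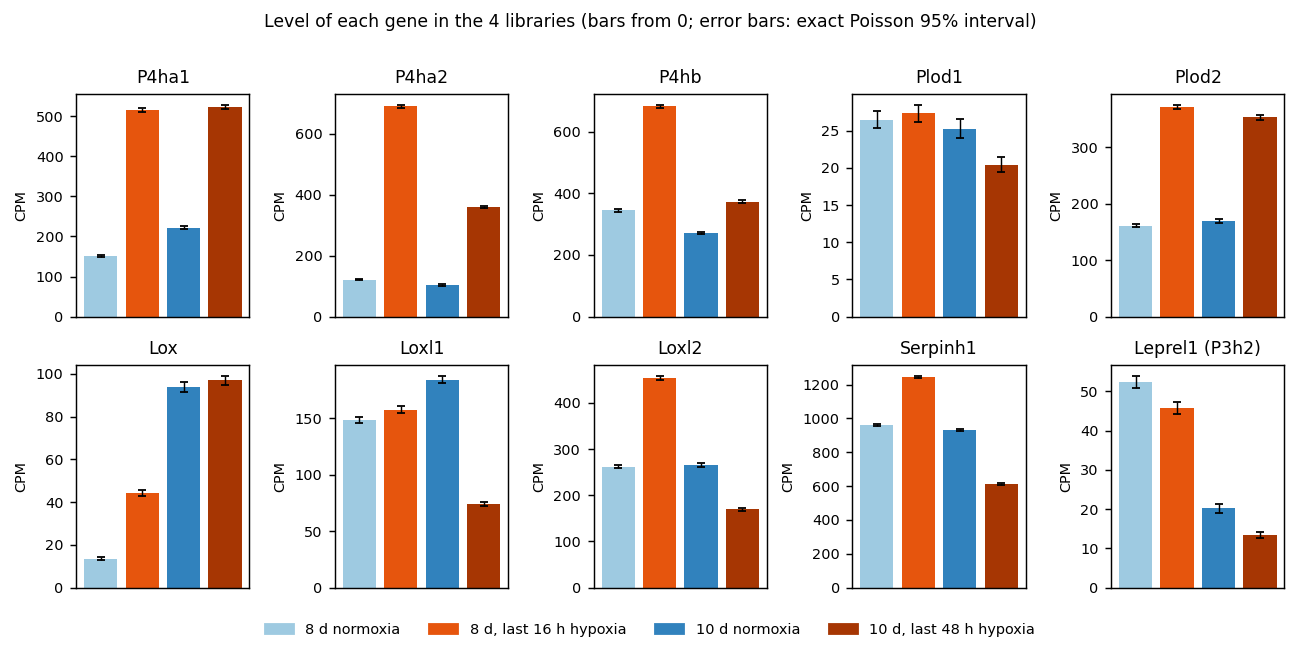
Level of each of the 10 genes in CPM (vertical axes, each from 0) in the 4 libraries, with exact Poisson 95% intervals as error bars. P4ha1, P4ha2 and Plod2 stand above normoxia in both hypoxia libraries, Lox is lowest in 8-day normoxia (13.5 CPM), and Loxl1, Loxl2 and Serpinh1 are lowest after 48 h of hypoxia.

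Among the prolyl 4-hydroxylase genes, P4ha1 encodes the alpha subunit found in most tissues. It stood at 150.5 CPM in 8-day normoxia, 516 CPM after 16 h of hypoxia, 222 CPM in 10-day normoxia and 524 CPM after 48 h of hypoxia. Both hypoxia libraries were high and their counting intervals overlapped (511 to 521 and 519 to 529 CPM), while the normoxia libraries were low and differed from each other. The ratio of hypoxia to normoxia was 3.43 (95% interval 3.36 to 3.50) at day 8 and 2.36 (2.32 to 2.41) at day 10, a log2 ratio of CPM + 1 of 1.77 and 1.24. Relative to the median of all genes, the values were 1.89 and 1.70. P4ha1 ranked 46th and 283rd from the top among 10599 genes in these comparisons.

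P4ha2, the second alpha subunit, stood at 121 CPM in 8-day normoxia, 691 CPM after 16 h of hypoxia, 103 CPM in 10-day normoxia and 359.6 CPM after 48 h of hypoxia. It was highest after 16 h, with the library of 48 h next and the normoxia libraries well below. The ratio was 5.69 (5.57 to 5.81) at day 8 and 3.48 (3.39 to 3.58) at day 10, with log2 ratios of 2.50 and 1.79, the largest of the 10 members both times. Relative to the median of all genes, they were 2.61 and 2.25. P4ha2 ranked 16th and 106th from the top of 10599 genes.

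P4hb encodes protein disulfide isomerase, which is the beta subunit and also folds other secreted proteins. It stood at 345 CPM in 8-day normoxia, 682 CPM after 16 h of hypoxia, 271 CPM in 10-day normoxia and 373 CPM after 48 h. Only the library of 16 h stood clearly above the rest. The ratio was 1.98 (1.95 to 2.01) at day 8 and 1.38 (1.35 to 1.40) at day 10, with log2 ratios of 0.98 and 0.46, the second short of 1.5-fold. Relative to the median of all genes, the day 10 value was 0.92, and under TMM scaling it was 0.96, both past 1.5-fold.

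The balance within the alpha subunits moved with hypoxia. P4ha2 took 41.8% of the UMIs of P4ha1, P4ha2 and P4ha3 together in 8-day normoxia and 56.5% after 16 h of hypoxia. At day 10 the share was 30.3% in normoxia and 40.4% after 48 h. The Clopper-Pearson 95% intervals of these 4 shares did not overlap (41.2% to 42.5%, 56.2% to 56.8%, 29.6% to 30.9%, 40.0% to 40.7%). These are shares of captured 3′ ends and not of protein.

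Of the lysyl hydroxylases, Plod2 encodes the enzyme that acts on the telopeptides of collagen. It stood at 161 CPM in 8-day normoxia, 372 CPM after 16 h of hypoxia, 169 CPM in 10-day normoxia and 353 CPM after 48 h. The hypoxia libraries were both high and the normoxia libraries both low. The ratio was 2.30 (2.26 to 2.35) at day 8 and 2.09 (2.04 to 2.13) at day 10, with log2 ratios of 1.20 and 1.06. Relative to the median of all genes they were 1.31 and 1.52, so which of the 2 comparisons gave the larger value turned with the scaling.

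Plod1, which acts mainly on lysines in the helix, stood at 26.5 CPM in 8-day normoxia, 27.3 CPM after 16 h of hypoxia, 25.3 CPM in 10-day normoxia and 20.4 CPM after 48 h. The counting intervals of the first 3 libraries overlapped, and the last was lower. The ratio was 1.03 (0.972 to 1.09) at day 8 and 0.808 (0.753 to 0.867) at day 10, with log2 ratios of 0.04 and -0.29. The direction at day 10 turned with the scaling: the value was 0.17 relative to the median of all genes and 0.19 under TMM. Plod2 took 68.9% of the UMIs of Plod1, Plod2 and Plod3 together in 8-day normoxia and 81.3% after 16 h of hypoxia. The same share was 71.5% in 10-day normoxia and 83.2% after 48 h.

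**Figure D2:**
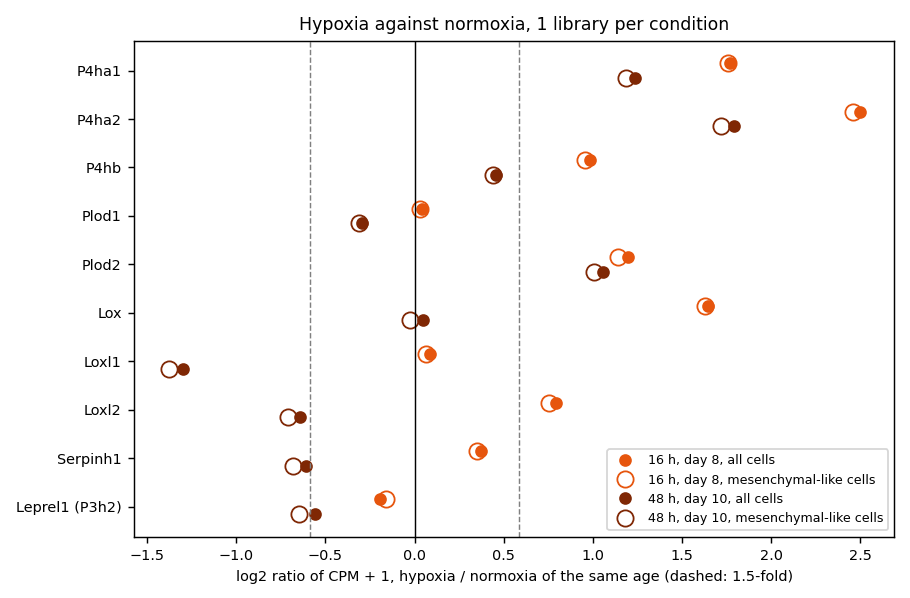
Log2 ratio of CPM + 1 of each gene, hypoxia against normoxia (horizontal axis), for 16 h at day 8 and 48 h at day 10, over all cells (filled) and over mesenchymal-like cells alone (open), with 1.5-fold dashed. On this scale every gene lies further to the left at day 10 than at day 8, whereas relative to the median of all genes Plod2 (1.31 and 1.52) and Plod1 (0.16 and 0.17) lie further to the right at day 10, and open and filled symbols of a comparison lie close together.

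Among the lysyl oxidases, Lox, which crosslinks collagen and elastin, differed most between the ages. It stood at 13.5 CPM in 8-day normoxia, 44.3 CPM after 16 h of hypoxia, 93.8 CPM in 10-day normoxia and 97.0 CPM after 48 h. The 2 libraries of day 10 were high and their counting intervals overlapped, and the library of 16 h lay between them and 8-day normoxia. The ratio of hypoxia to normoxia was 3.29 (3.08 to 3.52) at day 8 and 1.03 (0.999 to 1.07) at day 10, with log2 ratios of 1.65 and 0.05, and the second was 0.51 relative to the median of all genes. The ratio of day 10 to day 8 in normoxia was 6.96 (6.54 to 7.43), with a log2 ratio of 2.71, the 12th highest of 10599 genes.

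Loxl1, known for its part in elastic fibres, stood at 148 CPM in 8-day normoxia, 158 CPM after 16 h of hypoxia, 184 CPM in 10-day normoxia and 74.2 CPM after 48 h. The library of 48 h alone was low. The ratio was 1.06 (1.04 to 1.09) at day 8 and 0.403 (0.390 to 0.416) at day 10, with log2 ratios of 0.09 and -1.30. Relative to the median of all genes, the day 10 value was -0.84, and it stayed past 1.5-fold lower under all 11 alternatives tried.

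Loxl2, which acts on basement membrane collagen, stood at 262 CPM in 8-day normoxia, 454 CPM after 16 h of hypoxia, 265 CPM in 10-day normoxia and 169.9 CPM after 48 h. The normoxia libraries had overlapping intervals, the library of 16 h lay above them and that of 48 h below. The ratio was 1.73 (1.71 to 1.76) at day 8 and 0.640 (0.626 to 0.655) at day 10, with log2 ratios of 0.79 and -0.64. The day 10 value was -0.18 relative to the median of all genes and -0.14 under TMM scaling, so that it no longer reached 1.5-fold. In cluster 15, a small mesenchymal-like cluster present in both libraries of day 10, Loxl2 was higher after 48 h (ratio 1.60).

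Within the 5 lysyl oxidase genes (Lox, Loxl1, Loxl2, Loxl3, Loxl4), Lox took 3.11% of UMIs in 8-day normoxia, 6.68% after 16 h of hypoxia, 16.9% in 10-day normoxia and 28.1% after 48 h. Loxl1 took 34.3%, 23.8%, 33.1% and 21.5% in the same order, so its share was lower in both hypoxia libraries. Loxl2 took 60.5%, 68.5%, 47.7% and 49.3%.

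The chaperone gene Serpinh1 stood at 963 CPM in 8-day normoxia, 1245 CPM after 16 h of hypoxia, 932 CPM in 10-day normoxia and 612 CPM after 48 h. The normoxia libraries were near each other, with hypoxia above them at day 8 and below them at day 10. The ratio was 1.29 (1.28 to 1.31) at day 8 and 0.656 (0.649 to 0.665) at day 10, with log2 ratios of 0.37 and -0.61. Under TMM scaling the day 8 ratio passed 1.5-fold (0.60) and the day 10 value was -0.11, and relative to the median of all genes the latter was -0.14.

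P3h2 stood at 52.5 CPM in 8-day normoxia, 45.8 CPM after 16 h of hypoxia, 20.2 CPM in 10-day normoxia and 13.4 CPM after 48 h. Its levels followed the age, with both libraries of day 8 above both of day 10, and hypoxia was the lower of each pair. The ratio of hypoxia to normoxia was 0.874 (0.836 to 0.913) at day 8 and 0.664 (0.611 to 0.722) at day 10, with log2 ratios of -0.19 and -0.56, and the second was -0.09 relative to the median of all genes. Under TMM scaling the values were 0.03 and -0.08, so the direction at day 8 turned. The ratio of day 10 to day 8 in normoxia was 0.385 (0.362 to 0.410), with a log2 ratio of -1.33. In 8-day normoxia, 1692 of the 4083 P3h2 UMIs of mesenchymal-like cells lay in cluster 11, at 174 CPM. That cluster had 370 cells in 8-day normoxia, 58 after 16 h of hypoxia and 21 in 10-day normoxia. Its part in the P3h2 ratios was not tested.

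Between the ages in normoxia, 1 of 10 members (Lox) was at least 1.5-fold higher at day 10, where 7.94% of all genes were, and 1 of 10 (P3h2) was at least 1.5-fold lower, where 8.22% were. The median log2 ratio of the members was -0.01, against -0.08 over all genes. P4ha1 lay just inside 1.5-fold at 0.56 and past it under 4 of 11 alternatives, up to 0.68. The other 7 members ranged from -0.34 (P4hb) to 0.31 (Loxl1).

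Most cells were mesenchymal-like, a class that joins clusters marked by general mesenchymal, smooth muscle or epicardial genes: 84.6%, 86.3%, 89.5% and 93.6% of kept cells in 8-day normoxia, 16 h hypoxia, 10-day normoxia and 48 h hypoxia. Within these cells 6 of 10 members were at least 1.5-fold higher after 16 h, where 4.86% of 10398 genes were, and none was as much lower, where 10.1% were. After 48 h, 3 of 10 were higher, where 11.1% were, and 4 of 10 (Loxl1, Loxl2, Serpinh1 and P3h2) were lower, where 43.9% were. Between the ages 1 of 10 was higher, where 7.88% were, and 1 of 10 lower, where 8.57% were. Different clusters held most of this class in the libraries of day 10. Counting clusters with at least 100 cells in a library, these were clusters 0, 2, 6, 13 and 15 after 48 h of hypoxia and clusters 5, 7, 8 and 9 in normoxia. Cluster 15 was present in both, with 152 cells (3.52% of the class) after 48 h and 77 cells (3.22%) in normoxia. At day 8 most of the class lay in clusters shared by both libraries, but cluster 4 held 36.2% of it after 16 h of hypoxia (1043 cells) against 24 cells in normoxia, and cluster 11 held 13.8% in normoxia (370 cells) against 58 cells. Cluster 4 had the highest P4ha1 (748 CPM), P4ha2 (1043 CPM), Plod2 (459 CPM) and Serpinh1 (1565 CPM) of the clusters counted.

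Clusters with at least 100 cells in a library show how evenly a difference was spread. P4ha1 ranged from 137 to 178 CPM over 5 mesenchymal-like clusters of 8-day normoxia and from 364 to 748 CPM over 5 after 16 h of hypoxia. At day 10 it ranged from 167 to 297 CPM over 4 clusters in normoxia and from 355 to 657 CPM over 5 after 48 h. P4ha2 ranged from 103 to 161 CPM and from 513 to 1043 CPM at day 8, and from 63.6 to 135 CPM and from 299 to 462 CPM at day 10. For both genes the cluster ranges of hypoxia and normoxia did not overlap at either age. Of the other members, P4hb, Lox and Loxl2 had separate ranges at day 8, and Loxl1 and Loxl2 at day 10, where normoxia was the higher. How many of all genes had separate ranges was not counted. The separation is therefore not shown to be particular to these members. For Loxl2 at day 10 the ranges came close, at 259 CPM at most after 48 h and 262 CPM at least in normoxia. The day 10 separation depends on the minimum of 100 cells, which left out the 77 normoxia cells of cluster 15. In those, Loxl1 stood at 93.8 CPM and Loxl2 at 115 CPM, inside the 48 h ranges (20.1 to 125 and 82.2 to 259 CPM).

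**Figure D3:**
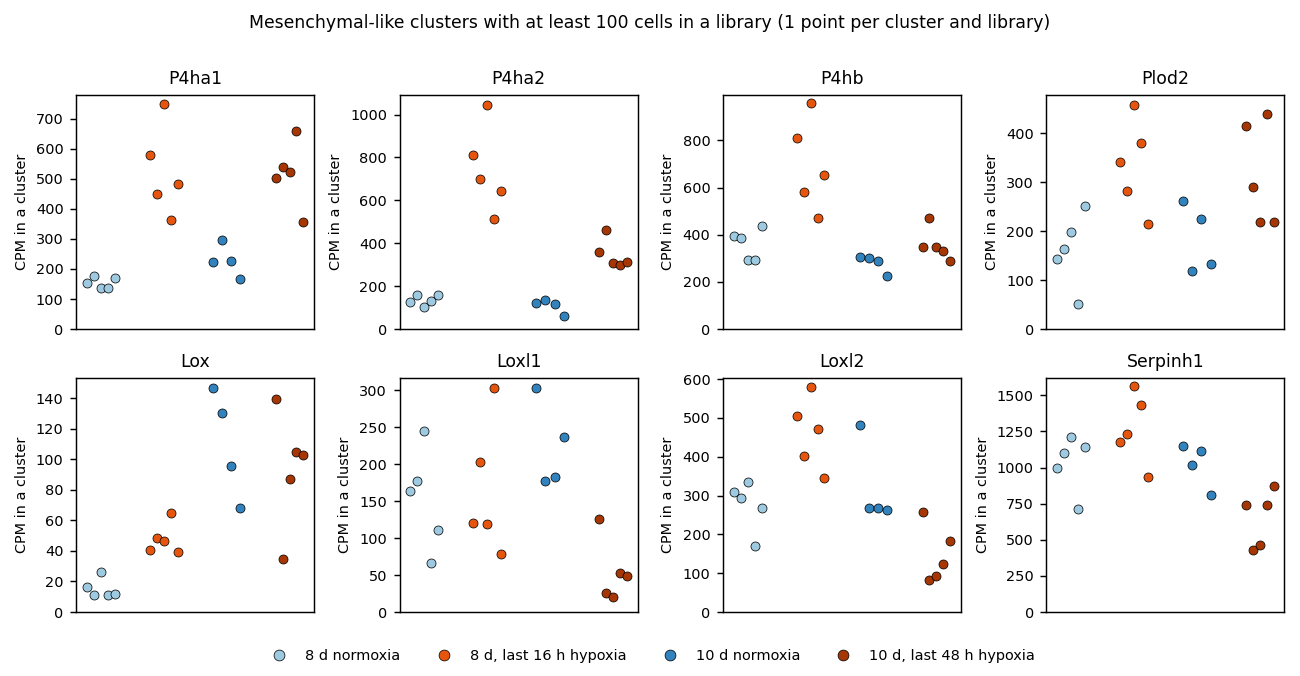
CPM (vertical axes, from 0) of 8 of the genes in each mesenchymal-like cluster with at least 100 cells in a library, 1 point per cluster and library. For P4ha1 and P4ha2 all hypoxia points lie above all normoxia points of the same age, while Plod2 and Serpinh1 overlap and Loxl1 and Loxl2 are lowest in clusters of the 48 h library.

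Plod2 varied widely between clusters of 1 library. In 8-day normoxia it ranged from 52.1 to 252 CPM and after 16 h of hypoxia from 215 to 459 CPM, so the ranges overlapped although the totals differed 2.30-fold. Clusters present on both sides allow a comparison within a cluster. In clusters 1, 3, 5 and 10, each with at least 100 cells in both libraries of day 8, the ratio of Plod2 was 2.40, 1.73, 1.91 and 4.12. Cluster 10, which had the lowest normoxic level, had the largest ratio (3.62 to 4.70).

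In the same 4 clusters the ratio of P4ha1 was 3.74, 2.52, 2.65 and 3.53, and that of P4ha2 was 6.42, 4.36, 4.97 and 4.97. Lox was higher in each, at 2.54, 4.22, 2.46 and 3.57 times its normoxic level. Loxl2 was higher by 1.63, 1.37, 1.41 and 2.01 times, which passes 1.5-fold in clusters 1 and 10 only. P3h2 went both ways, from 1.66 in cluster 1 to 0.826 in cluster 5. Cluster 5 was also present in 10-day normoxia with 119 cells, where Lox stood at 147 CPM against 26.3 CPM at day 8, a ratio of 5.58 (4.94 to 6.31).

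No cluster had 100 cells in both libraries of day 10. Cluster 15 was the nearest to it, and was taken for a comparison within a cluster after its size was seen. Its cells were shallow, with a median of 3550 UMIs. In it P4ha1 had a ratio of 3.02 (2.24 to 4.16), P4ha2 of 6.02 (3.90 to 9.76) and Plod2 of 2.74 (1.90 to 4.07), all higher after 48 h. Loxl1 was lower, at 0.513 (0.328 to 0.804). Loxl2, lower over all cells, was higher in this cluster, at 184 against 115 CPM and a ratio of 1.60 (1.16 to 2.25). Lox stood at 102.5 against 49.2 CPM, a ratio of 2.08 (1.29 to 3.51), and Serpinh1 at 870.3 against 851 CPM, a ratio of 1.02 (0.903 to 1.16). For most of the class, which lay outside cluster 15, cluster and library cannot be told apart at day 10.

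Counting cells gave a like picture for the genes of largest difference. With every cell thinned to 5000 UMIs, 46.9% of mesenchymal-like cells had a P4ha2 UMI in 8-day normoxia and 94.2% after 16 h of hypoxia. At day 10 the share was 38.0% in normoxia and 75.9% after 48 h. The unthinned shares were 87.4%, 98.2%, 73.5% and 87.2%, and thinning left out 22, 88, 111 and 514 shallower cells. Macrophage-like cells, which make little fibrillar collagen, had a P4ha2 UMI after thinning in 0 of 50 cells of 8-day normoxia, which allows a share of up to 6%, and in 31.4% of 35 cells after 16 h of hypoxia. In the libraries of day 10 their shares were 2.68% of 149 cells and 7.45% of 94 cells. Median depths were 23195, 18950, 20545 and 13011 UMIs in mesenchymal-like cells and 37777, 24499, 20962 and 12814 in macrophage-like cells.

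Lox was seen in fewer cells. After thinning, 5.73% of mesenchymal-like cells had a Lox UMI in 8-day normoxia, 17.9% after 16 h of hypoxia, 32.8% in 10-day normoxia and 27.8% after 48 h. The unthinned shares were 21.04%, 45.2%, 59.6% and 49.3%. Macrophage-like cells had a Lox UMI after thinning in 0 of 50, 2.86% of 35, 0.671% of 149 and 0 of 94 cells, and the last allows a share of up to 3.19%. The Lox level of mesenchymal-like cells was 100.5 CPM after 48 h and 102 CPM in 10-day normoxia, a ratio of 0.983 whose interval includes 1.

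Outside the mesenchymal-like class, P4ha1 and Plod2 were also higher after 16 h of hypoxia in the 7 other named classes, and so was P4ha2. These classes hold few cells: at day 8 between 15 and 199 per library. At day 10 they held between 3 and 151, and fewer classes passed 1.5-fold higher: 5 of 7 for P4ha1, 6 of 7 for P4ha2 and 4 of 7 for Plod2. The ratio's interval lay above 1 in 3, 3 and 5 of them. Plod2 did not pass in endoderm-like (ratio 1.38), cardiomyocyte-like (0.969) and pluripotent-like cells (0.684), nor P4ha1 in cardiomyocyte-like (1.25) and endothelial-like cells (1.31). In endoderm-like cells (199 and 142 cells) P4ha2 stood at 15.9 CPM in normoxia and 179 CPM after 16 h, a ratio of 11.3 (9.08 to 14.1). Plod2 in these cells stood at 188 and 524 CPM, and P4ha1 at 114 and 403 CPM. Plod2 was thus 110.4% of its mesenchymal-like level in normoxia and 138% after 16 h, the highest Plod2 level of any named class in both libraries.

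RNA set free by other cells can give UMIs in any droplet, so each level was set beside the 3 main fibrillar collagen genes, Col1a1, Col1a2 and Col3a1, in the same cells. In macrophage-like cells of day 8 these collagens stood at 1.15% to 2.22% of their mesenchymal-like level in normoxia and at 6.91% to 9.93% after 16 h. Serpinh1 stood at 2.75% and 8.70%, near the collagens. P4ha2 had 2 and 91 UMIs, with 0.777% and 12.4% (10.0% to 15.3%). The second was above the collagen values, but its interval overlapped that of Col1a1 (8.72% to 11.3%). Plod2 stood at 4.75% and 38.6% and P4hb at 49.6% and 47.1%, well above them in the hypoxia library. In endoderm-like cells the collagens stood at 3.70% to 5.19% and 7.89% to 11.3%, against 11.4% and 23.3% for P4ha2. In erythroid-like cells after 16 h the collagens stood at 23.5% to 26.0%, and P4ha2 (25.1%) and Serpinh1 (23.1%) cannot be told apart from that level, while P4ha1 (49.6%) and Plod2 (47.7%) stood above it. The same holds for P4ha2 in megakaryocyte-like cells after 16 h, at 7.60% (5.01% to 11.1%) with collagens at 5.35% to 15.4%. Over the 7 classes of that library, the interval lay above the values of all 3 collagens in 7 for P4ha1, 7 for Plod2 and 5 for P4ha2. The counting error of the collagens was left out of these counts, and the 5 include the macrophage-like cells.

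**Figure D4:**
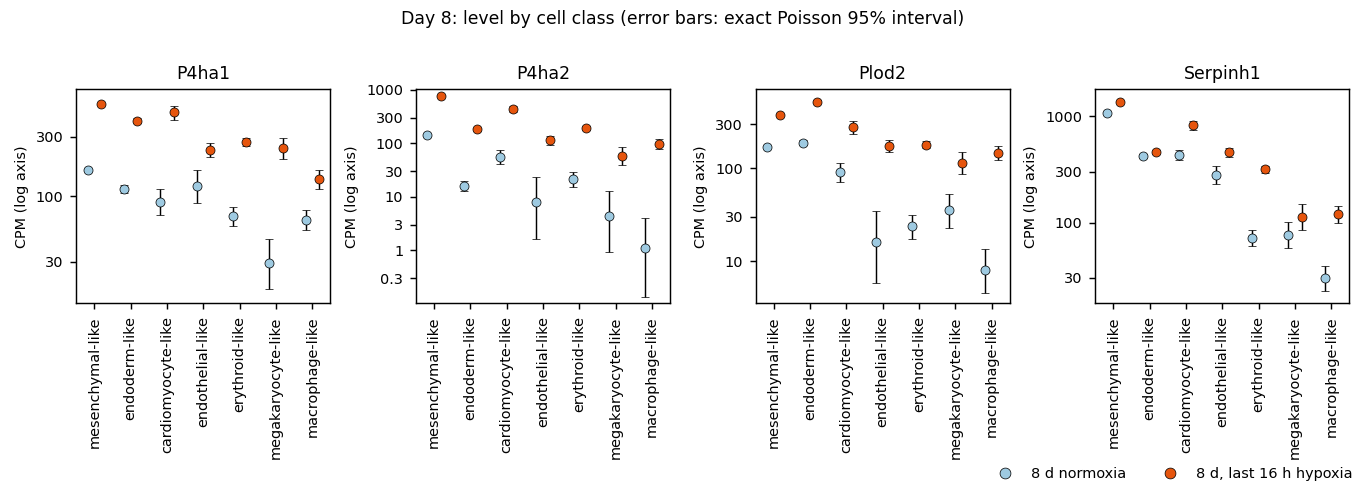
CPM (logarithmic vertical axes) of P4ha1, P4ha2, Plod2 and Serpinh1 in 7 cell classes at day 8, in normoxia and after 16 h of hypoxia, with exact Poisson 95% intervals. P4ha1, P4ha2 and Plod2 are higher after hypoxia in each class shown, and Serpinh1 is close between conditions in endoderm-like cells (422 and 459 CPM).

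P3h2 had its highest level in cardiomyocyte-like cells, at 283 CPM in 8-day normoxia (33 cells) and 149.8 CPM after 16 h of hypoxia (25 cells). In mesenchymal-like cells of the same libraries it stood at 56.4 and 50.3 CPM. The ratio of hypoxia to normoxia was 0.530 (0.403 to 0.690) in the cardiomyocyte-like cells and 0.891 (0.851 to 0.933) in the mesenchymal-like cells. At day 10 the cardiomyocyte-like cells stood at 127 CPM in normoxia, from 7 UMIs in 9 cells, and at 57.8 CPM after 48 h in 43 cells, a ratio of 0.454 whose interval (0.195 to 1.22) includes 1. Doublets were not resolved, so a small class can hold droplets of mixed origin.

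The level of the enzymes was then set against that of their substrate, the UMIs of the fibril-forming collagen chains, in mesenchymal-like cells. P4ha1 and P4ha2 together gave 45.5 UMIs per 1000 collagen UMIs in 8-day normoxia, 195 after 16 h of hypoxia, 39.7 in 10-day normoxia and 233 after 48 h. P4hb gave 56.0, 106, 32.05 and 97.6 in the same order, and Plod1 with Plod2 gave 30.3, 60.3, 23.4 and 98.1. All 3 were higher in hypoxia at both ages. The collagen chains themselves stood at 6596, 6765, 8729 and 3883 CPM, so at day 10 the lower collagen total moved these ratios together with the enzymes.

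Of the 3 genes lower per library at day 10, Serpinh1 and Loxl2 were higher against collagen after 48 h and Loxl1 was still lower. Serpinh1 gave 164 UMIs per 1000 collagen UMIs in 8-day normoxia and 203 after 16 h, and 116 in 10-day normoxia and 163 after 48 h. Loxl2 gave 44.4, 72.99, 32.9 and 45.1 in the same order, and Loxl1 gave 25.997, 26.5, 23.1 and 19.8. The intervals of Loxl1 overlapped at day 8 and not at day 10 (22.7 to 23.5 and 19.3 to 20.4). Lox gave 2.36, 7.43, 11.7 and 25.9, and the 3 oxidases together gave 72.8, 107, 67.7 and 90.8.

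**Figure D5:**
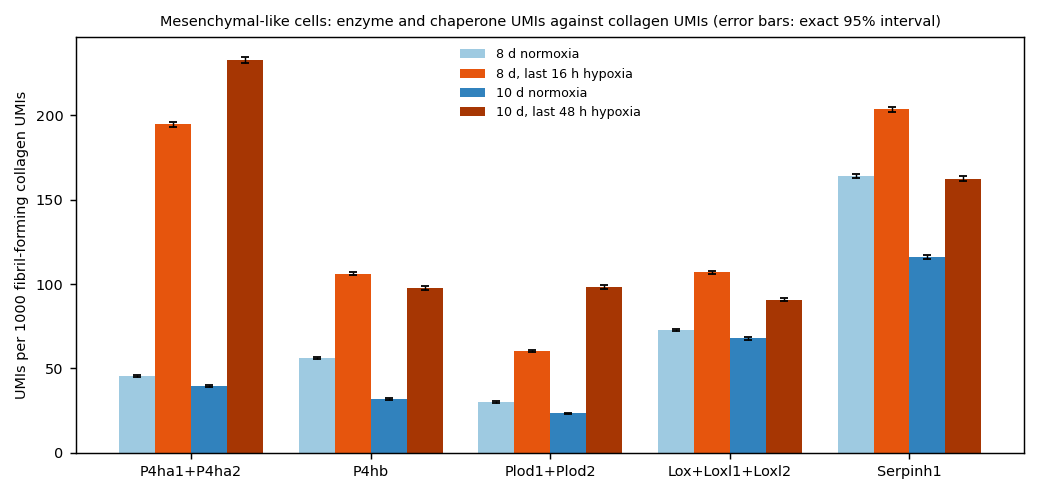
UMIs of each enzyme group or of Serpinh1 per 1000 UMIs of fibril-forming collagen chains in mesenchymal-like cells (vertical axis, from 0) in the 4 libraries, with exact 95% intervals as error bars. Each bar group is higher in hypoxia than in normoxia of the same age (within the oxidases, Loxl1 alone is lower at day 10, 23.1 against 19.8), most of all P4ha1 with P4ha2 (45.5 to 195 and 39.7 to 233).

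Further genes of the pathway are given by their counts, to be read against the shares of all genes at least 1.5-fold higher and lower (4.59% and 10.0% at day 8, 10.4% and 44.1% at day 10). Differences between these lists and the members were not tested. Of 21 further collagen-modifying enzymes and partners, 17 passed the filter. At day 8, 0 of the 17 were at least 1.5-fold higher and 1 lower, and at day 10, 1 was higher and 9 lower, with median log2 ratios of 0.07 and -0.79 (-0.11 and -0.46 over all genes). Tmem38b, an endoplasmic reticulum ion channel needed for collagen modification, stood at 11.7 and 12.1 CPM at day 8 and at 20.4 and 64.4 CPM at day 10, normoxia first. Adamts3, a procollagen protease, stood at 11.1, 6.75, 30.3 and 4.06 CPM in the 4 libraries (8 days normoxia, 16 h, 10 days normoxia, 48 h). P3h3 (28.9, 36.5, 40.0 and 11.1 CPM) and Loxl3 (8.58, 6.998, 11.5 and 3.35 CPM) were also lowest after 48 h.

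Of the fibril-forming collagen chains, 7 of 11 passed the filter, 0 of them past 1.5-fold either way at day 8, and 0 higher and 4 lower at day 10. Col1a1 stood at 2020.4, 2291, 2773 and 1688 CPM in the 4 libraries and Col1a2 at 1218, 916, 2129 and 502 CPM. Of 17 other collagen chains, 2 were higher and 1 lower at day 8, and 4 higher and 12 lower at day 10. Elastin itself, which Lox and Loxl1 crosslink, did not pass the filter (Eln, 4.25, 3.11, 5.75 and 1.17 CPM). Of the other elastic fibre genes, such as fibrillins and fibulins, 13 passed, with 0 higher and 1 lower at day 8 and 0 higher and 11 lower at day 10.

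Of general folding genes of the endoplasmic reticulum, 17 passed. At day 8, 1 was higher by 1.5-fold or more and 1 was lower, near the shares of all genes, and the median log2 ratio was -0.21. The higher one, Ero1l, encodes the oxidase that recharges protein disulfide isomerase, and stood at 36.2 CPM in 8-day normoxia and 269 CPM after 16 h. At day 10 it stood at 46.0 and 173 CPM, among 4 genes higher and 5 lower. Hspa5, the main chaperone of this compartment, stood at 498 and 406 CPM at day 8 and at 337 and 703 CPM at day 10.

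For each member, the genes with the most similar profile over the 4 libraries were sought among 6362 genes whose level averaged 20 CPM or more, by Euclidean distance between centred log2 profiles. With only 4 libraries such likeness is a description. The nearest to P4ha1 were Gpi1, Mxi1 and Prelid2 (distances 0.21, 0.25 and 0.33), and the nearest to P4ha2 were Egln1, Slc16a3 and Pfkp (0.33, 0.42 and 0.44). Egln1 encodes a HIF prolyl hydroxylase, Slc16a3 a lactate transporter, and Gpi1 and Pfkp glycolytic enzymes. The nearest to Plod2 were Nkain2, Kdm3a and Mboat2 (0.14, 0.18 and 0.18), and to P4hb Ccdc58, Hacd1 and Fndc3a (0.20, 0.20 and 0.23). Lox had the most distant neighbours, S100a4, Mgll and Lbh (0.59, 0.81 and 0.83). For Plod1, Loxl1, Loxl2, Serpinh1 and P3h2 the nearest genes were Lrrc8c, Nkap, March3, Btbd2 and Greb1l, at distances of 0.02 to 0.15.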

How the data were processed

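Dissociated cells of embryoid bodies were counted with the 10x single cell 3′ v3.1 protocol, per the labels' protocols, in 4 libraries, 1 per group. The authors deposited raw UMI counts per gene and barcode, made with Cell Ranger 7.1.0 on mm10, per the submitters' processing notes. The sources used here do not say whether reads in introns entered the counts, nor which annotation was used. The count files list 32285 gene IDs, of which 32158 matched GENCODE M21.

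A barcode was kept if it had 500 genes or more and no more than 15% mitochondrial UMIs. Scrublet (scanpy 1.11.5) called 5, 1, 9 and 1 doublets (0.158%, 0.0299%, 0.336% and 0.0217%), too few to have worked, so doublets remain. UMIs were summed over kept cells, scaled to CPM, and 2 libraries were set against each other as log2 of (CPM + 1) over (CPM + 1), with scipy 1.17.1, numpy 2.4.6 and pandas 2.3.3 in Python 3.11.15. A pseudocount of 1 CPM understates differences of low genes. Ratios printed with intervals are plain ratios of CPM. A call is a ratio of at least 1.5-fold among genes whose level averaged 5 CPM or more over the 4 libraries. Intervals (95%) are exact Poisson for levels, conditional binomial for ratios and Clopper-Pearson for shares, and cover counting error only. A share of 0 was given the limit of 3 counts. No test was run, because each group is 1 library and cells are not replicates. The interval and call scripts were tested on simulated data.

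The cells were clustered jointly on 2000 variable genes, without the genes reported here, those of hypoxia, cell cycle, stress, mitochondria and ribosomal proteins (30 components, 15 neighbours, Leiden at resolution 1, leidenalg 0.10.2, igraph 0.11.9). A cluster was named by the marker list of highest mean log2 fold, if at least 1, with at least 3 markers 2-fold higher in 10% of cells. Mesenchymal, smooth muscle and epicardial clusters were named last, against the others, and joined. This order was chosen after seeing the data, and 2 clusters stayed unnamed. TMM factors came from edgeR 4.0.16 (R 4.3.3).

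The members, gene lists, markers and alternatives were chosen with earlier results of these data known. Every member was named. Of other lists, up to 4 genes with the largest log2 ratio in a hypoxia comparison could be named, and for each member its 3 nearest profiles. Promoters came from RefSeq (GRCm38.p6). Proteins and promoters of further members were not used here.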

Additional observations from a re-analysis of the deposited data

Results flagged for a closer look

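Loxl2 was at least 1.5-fold higher after 16 h of hypoxia at day 8 (262 against 454 CPM, log2 ratio 0.79) and at least 1.5-fold lower after 48 h at day 10 (265 against 169.9 CPM, -0.64), so the log2 ratio at day 10 minus that at day 8 was -1.43. It drew attention as the only 1 of the 10 genes past 1.5-fold in opposite directions. The difference was not tested, since each condition is 1 library, and length of hypoxia and age of the culture cannot be told apart. Relative to the median of all genes the day 10 value was -0.18. In cluster 15, the mesenchymal-like cluster with most cells in both libraries of day 10, Loxl2 was higher after 48 h, at 1.60 times its normoxic level (1.16 to 2.25).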

How the results depend on the processing

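Each comparison was recomputed under 11 alternatives of scaling, filtering and cell choice, and the counts also at a fold of 2. The 6 members higher and 0 lower after 16 h, and the 3 higher after 48 h, stayed within 1.5 times under every one of these. The 6 reached that limit at a fold of 2, which P4hb (log2 ratio 0.98) and Loxl2 (0.79) fell short of. Under TMM scaling Serpinh1 (0.60) joined the 6 at day 8. The 3 members lower after 48 h became 1 with TMM scaling, with scaling that leaves out mitochondrial and ribosomal protein genes, with centring on the median of all genes and with a fold of 2. The 1 member higher at day 10 in normoxia became 2 (P4ha1 joining Lox) with TMM scaling, with that second scaling, with centring and as a mean over cells. In cells with at least 5000 UMIs, an alternative chosen after seeing the data, no count left 1.5 times its value. Of 363 values of single members and of medians under the alternatives, 225 stayed and 138 moved, and none that was past 1.5-fold changed sign. A member's value stayed if it lay within its counting interval. A median stayed if it lay within the members' range without the lowest and highest member, a wide limit. No paired analysis was possible because each condition has 1 library. Leaving out a replicate was likewise not possible. Cells of the 48 h library are shallower, which limits low genes such as Plod1 and P3h2 there.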
